A study of Mus musculus with 14 samples.

Results

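The HoxB cluster genes were the 10 symbols Hoxb1, Hoxb2, Hoxb3, Hoxb4, Hoxb5, Hoxb6, Hoxb7, Hoxb8, Hoxb9 and Hoxb13, taken by name from the 23284 symbols with counts in every sample. All 10 were found, and 9 of them had 1 or more CPM (counts scaled to the size of the library) in 3 or more samples, which was the condition for testing. Hoxb13 did not meet it. The samples were 14 RNA-seq libraries of mouse forelimb buds on the NMRI strain background, each made from the forelimb bud pair of 1 embryo. Wild-type controls were Smad4+/+ PrxCreT/+ embryos and mutants were Smad4Δ/Δc PrxCreT/+ embryos, so that the Prrx1-Cre transgene, active in limb mesenchyme, was present in both. Mutants carried 1 constitutive null allele of Smad4 and 1 allele inactivated by Cre in the limb mesenchyme, while their other cells kept the latter allele. Both genotypes were sampled at 2 embryonic days, E10.0 with 30 somites and E10.5 with 35 somites, as 3 wild-type and 4 mutant embryos per stage. The comparisons asked how HoxB transcript levels differed between the stages and whether they differed when mesenchymal SMAD4, the common partner of the receptor-regulated SMADs of the BMP and TGFβ pathways, was lost.

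Hox genes encode homeodomain transcription factors that give cells positional identity along the body axis. They lie in clusters in which the order of the genes on the chromosome mirrors the order in which they are first transcribed in the embryo and the anterior limit of each in the trunk. In limb buds the HoxA and HoxD clusters are known for their roles in patterning the proximo-distal segments and the digits, whereas HoxB genes are mainly known from the hindbrain, the trunk neural tube, the somites and the lateral plate mesoderm from which the forelimb bud arises. Hox proteins bind DNA together with cofactors of the PBX and MEIS families, and the CDX homeodomain factors and retinoic acid are known inputs to the clusters.

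All 10 genes lie on the plus strand of chromosome 11 (mm9 build). In the GENCODE annotation of that build the cluster runs from the start of Hoxb13 at 96055630 to the end of Hoxb1 at 96229570, a stretch of 174 kb. Hoxb13 is separated from Hoxb9 by 74.0 kb, and the 9 other genes lie within 96.8 kb in the order Hoxb9, Hoxb8, Hoxb7, Hoxb6, Hoxb5, Hoxb4, Hoxb3, Hoxb2 and Hoxb1. The reads were counted without regard to strand, so transcripts from the opposite strand cannot be told apart from those of the genes. The antisense genes Hoxb3os, Hoxb5os and 0610040B09Rik were not analysed here. The annotated Hoxb7 and Hoxb8 models overlap, and reads in the shared stretch may be missing from both.

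The libraries held from 34066930 to 61691258 reads assigned to genes. Smad4 stood at 169, 152 and 161 CPM in the 3 wild-type samples of E10.0 and at 38.4, 46.0, 37.7 and 36.9 CPM in the 4 mutant samples. In the E10.5 libraries it stood at 167, 163 and 167 CPM for wild type and at 40.7, 38.8, 32.9 and 35.6 CPM in mutants, so that every library matched its labelled genotype. Mutant replicates 4 and 5 of both stages held 1.72% to 8.05% of their reads on Rn45s, the ribosomal RNA precursor, against 0.151% to 0.478% in the other 10 libraries. Results were therefore also computed without these 4 libraries, which left 2 mutant embryos per stage. All 4 were mutants, so Rn45s content and genotype cannot be fully told apart. The 5 limb mesenchyme markers summed to between 822 and 1259 CPM in every sample, and were lower in mutants at both stages, as given with the genotype comparisons. The 7 neural tube markers summed to at most 0.687 CPM in any sample, and Olig2 and Neurog2 had no read in any wild-type sample.

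Stretches of sequence are shown for the 2 genes with the largest fold change between stages in wild type, Hoxb1 and Hoxb8. Of the 10 genes, 3 had an entry among the RefSeq promoter windows used here (GRCm38.p6 build), namely Hoxb8, Hoxb4 and Hoxb1. The 250 bases before the start of each were searched on both strands for TGATNNAT, the composite site of PBX with a HOX partner, for TTTATNG, a site bound by CDX factors, and for GGCGCC, a SMAD box of BMP-responsive elements. Capitals mark the matches to TGATNNAT and TTTATNG. The Hoxb8 window is chr11:96281655-96281904 and the Hoxb1 window is chr11:96365508-96365757, both on the plus strand.
Hoxb8: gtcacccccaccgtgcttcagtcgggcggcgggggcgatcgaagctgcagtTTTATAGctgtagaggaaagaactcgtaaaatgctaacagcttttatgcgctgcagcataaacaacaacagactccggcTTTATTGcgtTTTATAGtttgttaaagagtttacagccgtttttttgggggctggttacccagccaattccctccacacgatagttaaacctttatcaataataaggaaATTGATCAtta
Hoxb1: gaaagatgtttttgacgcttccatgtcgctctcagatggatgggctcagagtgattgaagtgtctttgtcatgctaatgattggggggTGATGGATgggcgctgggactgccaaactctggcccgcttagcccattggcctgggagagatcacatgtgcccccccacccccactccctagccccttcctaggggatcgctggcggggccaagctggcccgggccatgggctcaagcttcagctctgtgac

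The Hoxb8 window held 3 matches to TTTATNG, whose first bases lay 199, 120 and 110 bases before the start, and 1 match to TGATNNAT, 11 bases before it. The Hoxb1 window held 1 match to TGATNNAT, 162 bases before the start, within the stretch known as an autoregulatory element at which HOX proteins bind with PBX. The Hoxb4 window held no match to either, and GGCGCC was absent from all 3 windows. No matches overlapped. Among all 32851 windows of the same length, 7.68% held TGATNNAT, 9.81% held TTTATNG and 9.59% held GGCGCC, so a match alone was not rare.

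A pair of microRNA genes lies inside the cluster, Mir196a-1 upstream of Hoxb9 and Mir10a beside Hoxb4. Their 5p arms are shown with the seed, bases 2 to 8, in capitals, and the third line is the best match of miR-196a-5p in the transcripts of the cluster, with the bases opposite the seed in capitals. That match lies at chr11:96146202-96146223 (mm9, plus strand) in the last exon of Hoxb8, after the coding sequence, and miR-196a is known to direct cleavage of Hoxb8 mRNA there. The site also lies within the annotated span of Hoxb7, which overlaps that of Hoxb8.
mmu-miR-196a-5p: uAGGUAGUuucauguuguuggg
mmu-miR-10a-5p: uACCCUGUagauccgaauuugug
Hoxb8 site: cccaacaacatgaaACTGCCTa

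All 22 bases of miR-196a-5p pair with the Hoxb8 site, 21 by Watson-Crick pairs and 1 by a G:U pair. The seeds of both microRNAs differ. The counts do not measure mature microRNAs, and the hairpin genes were close to the limit of detection: Mir196a-1 had at most 10 reads and Mir10a at most 2 reads in any sample, with no order between the groups. Gm53, a gene between Hoxb13 and Hoxb9, also stayed at 10 reads or fewer.

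HoxB transcripts fell between E10.0 and E10.5 in both genotypes. Of the 9 genes tested, 8 were called lower at E10.5 in wild-type forelimb buds and 8 were called lower in mutants, by edgeR's exact test (false discovery rate up to 0.1, fold change from 1.2 upwards). Among all 12393 genes tested, 4.74% were called lower and 5.39% higher in wild type, and 8.4% were called lower and 10.8% higher in mutants. None of the 9 genes was called higher. Hoxb1 entered this test mainly through its E10.0 libraries, so the count was also taken with no filter on low counts, where all 10 members and 18612 genes were tested: 8 members were called lower in each genotype, against 2.66% of genes in wild type and 6.08% in mutants. In the filtered set, the median log2 fold change of the 9 genes was -0.71 in wild type and -0.90 in mutants, against -0.01 for all genes tested in both. In bulk tissue, fewer cells that transcribe a gene and less RNA of that gene per cell cannot be told apart.

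**Figure D1:**
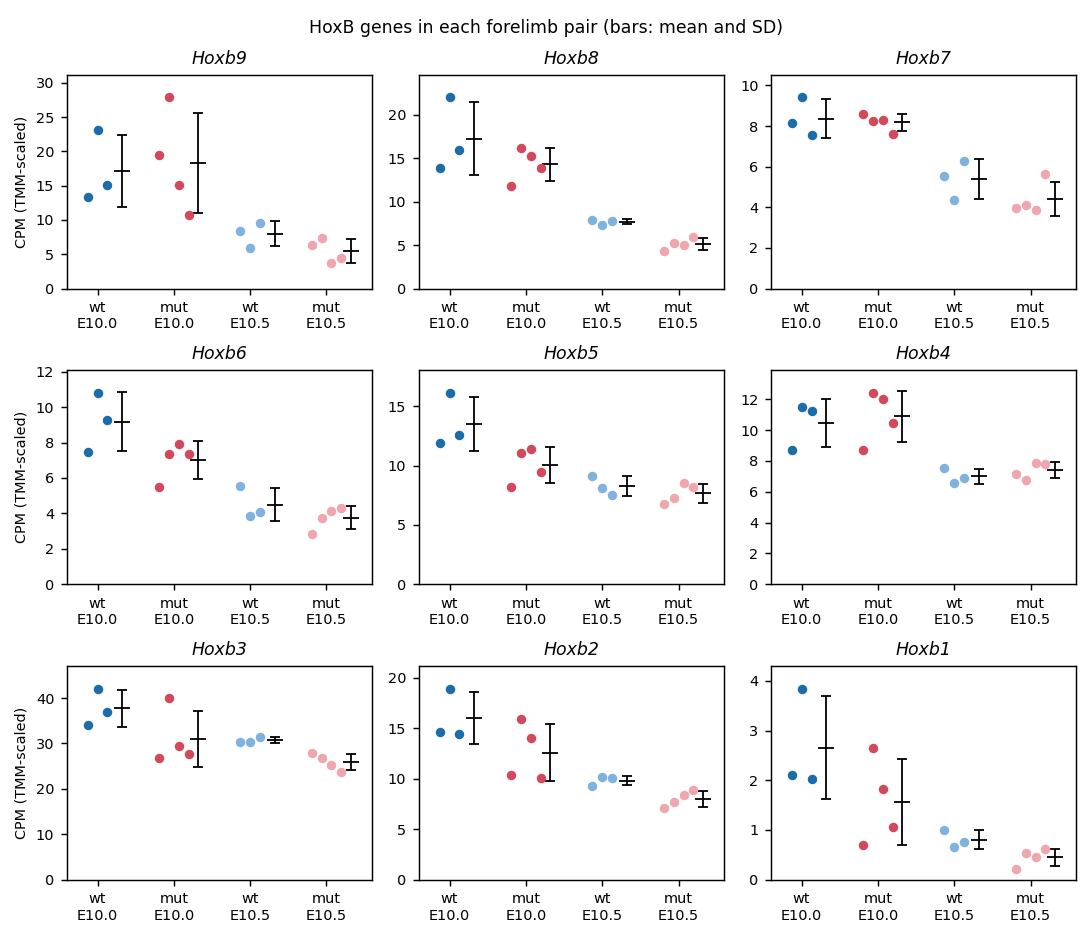
TMM-scaled CPM of the 9 tested HoxB genes in each forelimb bud pair (vertical axis, starting at 0), by genotype and stage (horizontal axis, wt for wild type and mut for mutant); points are embryos in the order of their replicate numbers, and black bars give the mean and SD. In wild type every E10.5 point lies below every E10.0 point for all 9 genes.

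At the posterior end of the cluster, Hoxb9 and Hoxb8 fell steeply. Hoxb9, whose product is known from the thoracic skeleton and lateral plate, stood at 13.3, 23.1 and 15.1 CPM in wild type at E10.0 and at 8.46, 5.97 and 9.59 CPM at E10.5. In mutants it stood at 19.5, 27.9, 15.1 and 10.7 CPM at E10.0 and at 6.40, 7.36, 3.76 and 4.40 CPM at E10.5. The stages did not overlap in either genotype, although the 4 mutant embryos at E10.0 were widely spread. The log2 fold change was -1.10 in wild type (adjusted P=0.00589) and -1.73 in mutants (adjusted P=2.2e-09), a 3.33-fold fall in the latter, and the standard errors (SEs) were 0.29 and 0.34. SEs here and below are those of the difference of group means in log2(CPM + 1), a scale on which changes of genes at a few CPM come out smaller than the fold change.

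Hoxb8, known from the posterior trunk and the limb field, gave the smallest P of the cluster in both genotypes. Its wild-type levels were 13.8, 22.0 and 15.9 CPM at E10.0 and 7.91, 7.37 and 7.81 CPM at E10.5. In mutants they were 11.8, 16.2, 15.2 and 13.9 CPM, and then 4.34, 5.19, 5.04 and 5.96 CPM. All E10.5 embryos of a genotype lay below all its E10.0 embryos. Hoxb8 transcripts decreased 2.24-fold in wild type (log2 fold change -1.16, SE 0.19, adjusted P=5.04e-09) and 2.79-fold in mutants (log2 fold change -1.48, SE 0.12, adjusted P=2.48e-19).

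Hoxb7 and Hoxb6, the next genes along the chromosome, fell as well. Hoxb7 stood at 8.15, 9.41 and 7.55 CPM in wild type at E10.0 and at 5.53, 4.34 and 6.28 CPM at E10.5, and in mutants at 8.57, 8.24, 8.28 and 7.62 CPM and then at 3.95, 4.14, 3.88 and 5.63 CPM. The E10.0 mutants were tightly grouped and the E10.5 mutants held 1 embryo, replicate 5, above the other 3. The log2 fold change was -0.64 in wild type (SE 0.16, adjusted P=0.00596) and -0.90 in mutants (SE 0.11, adjusted P=1.84e-07). Hoxb6, known from the lateral plate mesoderm, had 7.47, 10.8 and 9.25 CPM in wild type at E10.0 and 5.55, 3.83 and 4.07 CPM at E10.5. Its mutant values were 5.49, 7.34, 7.89 and 7.33 CPM, and then 2.83, 3.73, 4.13 and 4.30 CPM. The stages were again separate in both genotypes, with log2 fold changes of -1.03 (SE 0.19, adjusted P=3.11e-05) and -0.91 (SE 0.15, adjusted P=1.23e-05).

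The central genes are Hoxb5, Hoxb4 and Hoxb3. Hoxb5, whose loss is known to shift the position of the forelimb bud in mice, had 11.9, 16.1 and 12.6 CPM in wild type at E10.0 and 9.13, 8.13 and 7.51 CPM at E10.5. In mutants it had 8.19, 11.1, 11.4 and 9.47 CPM at E10.0, and at E10.5 it had 6.79, 7.22, 8.49 and 8.17 CPM, so that the stages overlapped in mutants. The log2 fold change was -0.71 in wild type (SE 0.15, adjusted P=0.000608) and -0.39 in mutants (SE 0.12, adjusted P=0.0382). The mutant call was lost in 4 of the 8 fits that each left out 1 mutant embryo, namely replicates 3 and 4 at E10.0 and replicates 1 and 2 at E10.5, where the adjusted P rose to between 0.124 and 0.143, and also without the 4 libraries rich in Rn45s (adjusted P=0.106).

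Hoxb4, of the paralog group known to act on the forelimb gene Tbx5, had 8.70, 11.5 and 11.3 CPM in wild type at E10.0 and 7.52, 6.58 and 6.89 CPM at E10.5. The mutant values were 8.74, 12.4, 12.0 and 10.5 CPM at E10.0 and 7.15, 6.77, 7.87 and 7.78 CPM at E10.5. Both genotypes separated by stage, each with 1 low embryo, replicate 1, at E10.0. The log2 fold changes of -0.58 (SE 0.13, adjusted P=0.0074) and -0.56 (SE 0.11, adjusted P=0.00079) were close to each other.

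Hoxb3 was the 1 tested gene that was not called in either genotype. It stood at 34.2, 42.1 and 37.0 CPM in wild type at E10.0 and at 30.3, 30.3 and 31.4 CPM at E10.5, without overlap. In mutants it stood at 26.8, 40.1, 29.4 and 27.7 CPM and then at 27.9, 26.8, 25.2 and 23.7 CPM, where the stages overlapped and replicate 3 at E10.0 lay far above the rest. Its log2 fold change was -0.30 in wild type (SE 0.09, adjusted P=0.172) and -0.26 in mutants (SE 0.14, adjusted P=0.112).

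At the anterior end, Hoxb2 and Hoxb1, both known for specifying hindbrain segments, fell. Hoxb2 had 14.7, 19.0 and 14.5 CPM in wild type at E10.0 and 9.30, 10.1 and 10.1 CPM at E10.5. In mutants it had 10.4, 15.9, 14.1 and 10.1 CPM and then 7.11, 7.67, 8.43 and 8.86 CPM. No E10.5 embryo reached an E10.0 embryo of its genotype, and the log2 fold changes were -0.70 (SE 0.12, adjusted P=0.00172) and -0.66 (SE 0.16, adjusted P=0.000273).

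Hoxb1 had the largest fold change of the cluster and the lowest counts among the tested genes, with 92 to 188 reads per wild-type sample at E10.0 and 12 to 27 reads per mutant sample at E10.5. Its levels in wild type were 2.10, 3.84 and 2.03 CPM at E10.0 and 1.01, 0.648 and 0.766 CPM at E10.5, and in mutants 0.701, 2.65, 1.83 and 1.06 CPM and then 0.213, 0.527, 0.453 and 0.619 CPM. Of its 14 libraries, 6 at E10.0 and 1 at E10.5 reached 1 CPM, so Hoxb1 met the testing condition through the stage at which it was high. In the fit with no filter on low counts its log2 fold change was -1.71 in wild type (adjusted P=0.00433) and -1.81 in mutants (adjusted P=0.000192). The difference of means in log2(CPM + 1) was -0.99 (SE 0.24) in wild type and -0.76 (SE 0.26) in mutants.

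Hoxb13, known from the tail bud and the prostate, had no read in the 11 libraries other than those of wild type at E10.5, where 2 of 3 libraries had 1 read each. A count of 0 allows up to 3 reads, which over the 3 wild-type libraries at E10.0 corresponds to 0.0201 CPM. This limit and the intervals of counts cover counting error only.

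**Figure D2:**
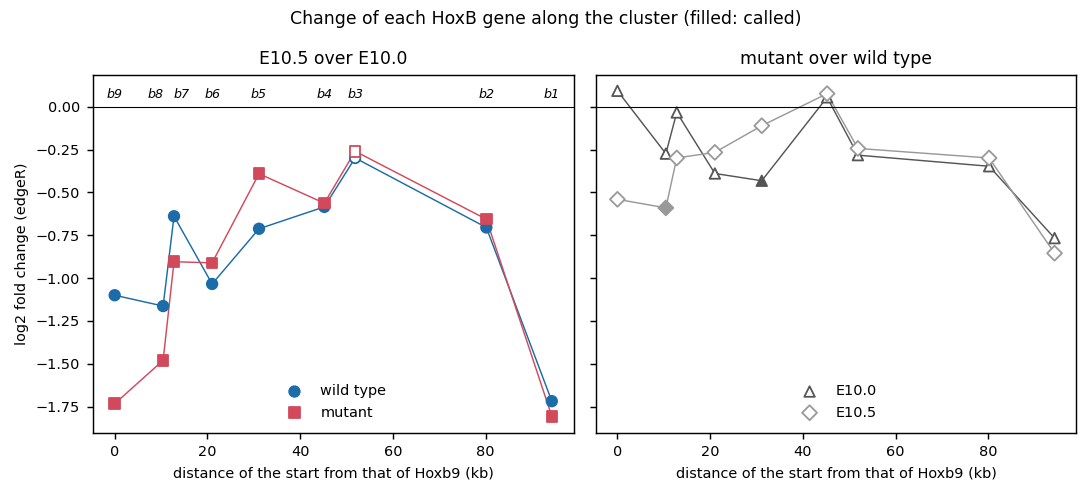
Log2 fold change of each tested HoxB gene (vertical axis) against the distance of its annotated start from that of Hoxb9 in kb (horizontal axis), for E10.5 over E10.0 (left) and mutant over wild type (right); filled symbols were called. On the left, Hoxb1 lies lowest and Hoxb3, 51.9 kb from Hoxb9, lies nearest to 0 in both genotypes.

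Along the chromosome, Hoxb1 at the anterior end had the largest fold change between stages and Hoxb3 the smallest in both genotypes. In log2(CPM + 1), Hoxb8 (-1.04 in wild type, -1.31 in mutants) and Hoxb9 (-0.996, -1.53) fell more than Hoxb1 (-0.986, -0.763). From Hoxb9 to Hoxb1 the log2 fold changes in mutants were -1.73, -1.48, -0.90, -0.91, -0.39, -0.56, -0.26, -0.66 and -1.81. In wild type they were -1.10, -1.16, -0.64, -1.03, -0.71, -0.58, -0.30, -0.70 and -1.72. These values are a description, and the differences between genes were not tested. In wild type all 9 genes had every E10.5 embryo below every E10.0 embryo, a pattern found in 20.4% of all genes tested. In mutants 7 of the 9 showed it, against 8.91% of all genes. Both counts include Hoxb1, which met the testing condition through the stage at which it was high. The calls in wild type leaned on replicate 2 at E10.0, the highest embryo for each of the 9 genes: without it 5 of 9 were called lower, and Hoxb4, Hoxb7 and Hoxb9 were lost (adjusted P=0.108, 0.106 and 0.152), with log2 fold changes of -0.51, -0.55 and -0.83. Calls also dropped among all genes, from 588 of 12393 called lower to 182 of 12377. Without the 4 Rn45s-rich libraries, with 2 mutant embryos left per stage, 7 of 9 were called lower in mutants, against 957 of all 12288 genes tested.

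Markers of somite and muscle precursors and of flank and mesothelium also moved between the stages. The summed level of the 7 somite and muscle precursor markers was 74.9 to 78.8 CPM in wild type at E10.0 and 102 to 115 CPM at E10.5, and 85.8 to 101 CPM and then 114 to 126 CPM in mutants. The 5 flank and mesothelium markers summed to 11.3 to 14.04 CPM and then 16.6 to 20.0 CPM in wild type, and to 18.5 to 31.8 CPM and then 21.7 to 27.1 CPM in mutants, with Foxf1a and Tcf21 close to 0 throughout. In wild type both sums rose, with Myf5, Meox2 and Wt1 called higher and Lbx1 called lower. In mutants Meox2, Myf5 and Osr1 were called higher, and Meox1, Pax3, Wt1 and Upk3b were called lower. Tbx4, a hindlimb gene, rose with a log2 fold change of 1.26 in wild type and 1.79 in mutants, while the 2 hindlimb markers summed to at most 16.2 CPM. The part of these tissues in the HoxB result was not tested.

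Between the genotypes, 1 of the 9 tested HoxB genes was called at each stage. Log2 fold changes were below 0 for 7 of the 9 at E10.0 and for 8 at E10.5. The medians of the 9 were -0.28 and -0.30, against -0.02 and -0.01 for all genes tested. The members were measured in the same embryos, so these counts are a description. At E10.0, Hoxb5 was called lower in mutants and no member was called higher, against 3.28% lower and 3.33% higher among all genes. Its 4 mutant values at E10.0, given above, all lay below the 3 wild-type values, with a mean of 10.04 ± 1.49 CPM (SD, n=4) against 13.5 ± 2.27 CPM (SD, n=3). The log2 fold change was -0.43 (SE 0.16, adjusted P=0.0732). The call was made in 3 of the 7 fits that left out 1 embryo of either group and in 3 of 6 other fits, and without mutant replicate 1 or 5 or wild-type replicate 2 or 3 the adjusted P was between 0.188 and 0.407.

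Summed levels of cell type markers differed between the genotypes too. The 5 limb mesenchyme markers summed to 981 to 1136 CPM in wild type and 822 to 980 CPM in mutants at E10.0, with Twist1, Tbx5 and Prrx1 called lower, and to 1191 to 1259 CPM and 939 to 1054 CPM at E10.5, with Twist1 and Prrx1 called lower. At E10.0 the flank and mesothelium markers (11.3 to 14.04 CPM against 18.5 to 31.8 CPM) and the somite and muscle precursor markers (74.9 to 78.8 CPM against 85.8 to 101 CPM) were higher in mutants without overlap. At E10.5 the flank marker sum was higher in mutants without overlap, but most of it was Osr1, which was called higher (mean 22.4 CPM against 14.6 CPM in wild type). Wt1 and Upk3b were called lower in mutants at E10.5, whereas both were called higher in mutants at E10.0. The somite marker sums overlapped at E10.5. The part of these differences in the HoxB values was not tested.

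The other members did not pass at E10.0. Hoxb1 (log2 fold change -0.77, adjusted P=0.251), Hoxb6 (-0.39, adjusted P=0.235), Hoxb2 (-0.35, adjusted P=0.21) and Hoxb3 (-0.28, adjusted P=0.197) had an unadjusted P under 0.05 in the exact test, and their groups overlapped. Hoxb8 was at -0.27, and Hoxb9, Hoxb4 and Hoxb7 were between -0.03 and 0.09. With 1 embryo left out, Hoxb1 ranged from -1.17 (without mutant replicate 3) to -0.40 (without wild-type replicate 2) and Hoxb8 from -0.41 to -0.06. Mutant replicate 3 was the highest mutant embryo for Hoxb1, Hoxb2, Hoxb3, Hoxb4, Hoxb8 and Hoxb9, and without it 4 members, Hoxb5, Hoxb1, Hoxb2 and Hoxb3, were called lower, whereas no member was called in 4 other fits that left out 1 embryo. Among all genes, 378 of 12372 were called lower without mutant replicate 3.

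At E10.5, Hoxb8 was called lower in mutants and again no member was called higher, against 1.54% lower and 2.19% higher among all genes. The 4 mutant embryos, at 4.34 to 5.96 CPM, all lay below the 3 wild-type embryos, at 7.37 to 7.91 CPM. The difference was 1.51-fold (log2 fold change -0.59, SE 0.08, adjusted P=0.0182). It was called in 6 of 6 other fits and in 4 of the 7 fits without 1 embryo. Without mutant replicate 1, wild-type replicate 1 or wild-type replicate 3 the adjusted P was 0.113, 0.108 and 0.101.

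Of the remaining members at E10.5, Hoxb1, Hoxb2 and Hoxb3 also had all mutant embryos below all wild-type embryos, with log2 fold changes of -0.85, -0.30 and -0.24, and did not pass (adjusted P=0.472, 0.555 and 0.504). Together with Hoxb8 these were 4 of 9 genes, against 6.40% of all genes tested. Hoxb9 stood at -0.54 (adjusted P=0.476), Hoxb7 at -0.30, Hoxb6 at -0.27 and Hoxb5 at -0.11, with overlapping groups, and Hoxb4 stood at 0.08. The comparisons by stage and by genotype use the same 14 samples, so they are not independent of each other.

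Whether the stage difference itself differed between the genotypes was asked with an interaction term, fitted by the quasi-likelihood method of edgeR. None of the 9 members was called, against 0.186% of all genes, none had an unadjusted P under 0.05, and DESeq2 also called none. The largest estimates were -0.62 for Hoxb9, 0.32 for Hoxb5 and -0.32 for Hoxb8 on the log2 scale, each with an adjusted P of 0.95, where a negative value is a larger fall in mutants. Differences of this size were not resolved.

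Levels were compared between genes as CPM per kilobase of annotated exon (RPKM). In wild type at E10.0, Hoxb3 had the highest mean, 12.6 ± 1.34 RPKM (SD, n=3), and none of its embryos overlapped with those of another member. Hoxb9 (6.67 ± 2.02 RPKM) and Hoxb8 (6.52 ± 1.60 RPKM) followed, and then came 3 genes at a similar level, Hoxb2 (4.85 ± 0.766), Hoxb5 (4.81 ± 0.808) and Hoxb6 (4.42 ± 0.801 RPKM). Each gene from Hoxb9 to Hoxb6 overlapped in range with its neighbour in this order. Hoxb4 (2.53 ± 0.376 RPKM) and Hoxb7 (2.05 ± 0.232 RPKM) lay below them with overlapping ranges, and Hoxb1 was last of the detected genes at 1.14 ± 0.443 RPKM.

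At E10.5 Hoxb3 was still the highest. In mutants it went from 10.3 ± 2.05 to 8.61 ± 0.614 RPKM (SD, n=4), Hoxb9 from 7.10 ± 2.85 to 2.13 ± 0.654 RPKM and Hoxb8 from 5.39 ± 0.725 to 1.94 ± 0.251 RPKM. The next highest gene in E10.5 mutants was Hoxb5, at 2.73 ± 0.283 RPKM. The order depended on the length used. Per kilobase of coding sequence, Hoxb3 was at 29.1 and Hoxb8 at 23.6 CPM in wild type at E10.0. Hoxb9 came before Hoxb3 in E10.0 mutants, at 24.4 against 23.9 CPM. The low place of Hoxb4 in RPKM also depended on length. Per kilobase of coding sequence, Hoxb4 came before Hoxb6 in wild type at E10.0. In E10.5 mutants it came directly after Hoxb3, at 9.86 CPM against 9.50 CPM for Hoxb5.

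**Figure D3:**
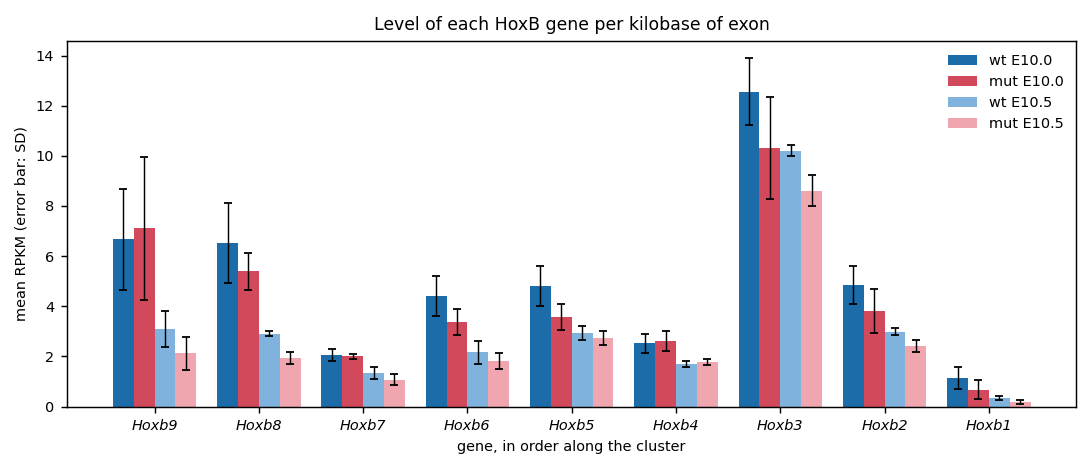
Mean RPKM of the 9 tested HoxB genes (vertical axis, starting at 0) in the order of the genes along the cluster (horizontal axis), with the SD over embryos as error bars. Hoxb3 stands above every other gene in each group, between 8.61 and 12.6 RPKM.

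Set against the other Hox clusters, HoxB transcripts were a minor share that was smaller at E10.5. The CPM of the 10 HoxB genes summed to 114, 158 and 125 in wild type and to 100.1, 142, 115 and 98.3 in mutants at E10.0. At E10.5 the sums were 84.7, 77.3 and 84.4 in wild type and 66.7, 69.4, 67.3 and 69.4 in mutants, the latter all below the former. Of the CPM of all 39 Hox genes, HoxB took 13.8% ± 2.11 (SD, n=3) in wild type and 12.6% ± 2.53 (SD, n=4) in mutants at E10.0. By E10.5 the share was 9.40% ± 0.697 in wild type and 7.53% ± 0.203 in mutants. The HoxC cluster was also a minor share, with 10.9% and 10.1% in wild type and 11.4% and 8.33% in mutants at the earlier and the later stage. The HoxA and HoxD clusters together held most Hox reads, with 34.8% and 40.5% in E10.0 wild type and 39.0% and 41.5% in E10.5 wild type.

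**Figure D4:**
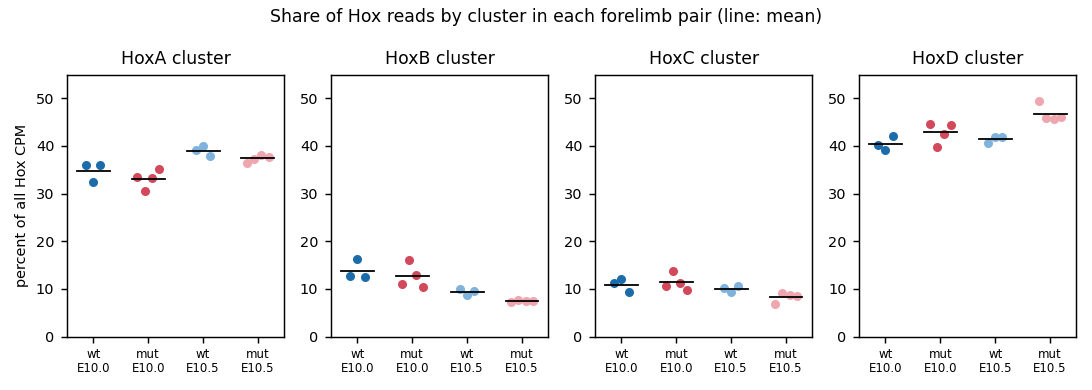
Share of each Hox cluster in the CPM of all 39 Hox genes (vertical axis, percent) in each forelimb bud pair, by genotype and stage (horizontal axis); points are embryos and lines are means. The HoxB points go from 10.5% to 16.2% at E10.0 to 7.28% to 9.99% at E10.5.

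The other clusters changed in both directions between the stages. In wild type, 1 of 11 HoxA genes rose, namely Hoxa13 (log2 fold change 3.64). Of 9 HoxD genes 3 rose, Hoxd11, Hoxd12 and Hoxd13, which are known from the digit-forming part of the bud, by 0.53, 1.37 and 0.62 on the log2 scale, and 2 fell, Hoxd9 (-0.65) and Hoxd8 (-0.48). None of 6 tested HoxC genes was called. In mutants 1 rose and 5 fell in HoxC, and 3 rose and 3 fell in HoxD. The median log2 fold change in wild type was -0.20, -0.28 and -0.48 for HoxA, HoxC and HoxD, against -0.71 for HoxB.

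Among the known inputs to Hox clusters, 16 of 22 genes were tested, and Cdx1 moved most like the HoxB genes. Cdx1, a homeodomain activator of Hox genes, fell from 5.74 ± 1.27 to 1.51 ± 0.136 CPM in wild type (log2 fold change -1.92, adjusted P=8.8e-09) and from 4.23 ± 1.73 to 0.834 ± 0.139 CPM in mutants (log2 fold change -2.36, adjusted P=2.5e-16). It was also lower in mutants at E10.5 (log2 fold change -0.87, adjusted P=0.0845). Cdx2 and Cdx4 stayed below the testing condition, with group means of at most 0.443 CPM. In all, 2 of the 16 rose and 2 fell in wild type, and 3 rose and 5 fell in mutants.

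Genes of retinoic acid metabolism went different ways. Cyp26b1, which degrades retinoic acid in the distal bud, rose by 0.91 in wild type (adjusted P=1.26e-05) and by 1.14 in mutants (adjusted P=2.88e-12) on the log2 scale. Aldh1a2, which makes retinoic acid, rose in wild type from 5.29 ± 1.40 to 10.5 ± 2.50 CPM (adjusted P=0.00606) and fell in mutants from 25.5 ± 8.96 to 4.58 ± 1.004 CPM (adjusted P=4.93e-22), and it was the 1 gene of the list called for the interaction. Wt1 and Upk3b, markers of mesothelium, were likewise called for the interaction. Rarb, a retinoic acid receptor gene, was lower in mutants at E10.5 (log2 fold change -0.41, adjusted P=0.0205).

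Of 9 genes for TALE cofactors, none was called between stages in wild type, and Meis3 (log2 fold change -1.07) and Meis2 (-0.37) were called lower at E10.5 in mutants. Meis3 was also lower in mutants than in wild type at E10.5 (-0.80, adjusted P=0.00138). Of 29 tested Polycomb and trithorax genes, which keep Hox clusters silent or active, 1 rose (Bmi1) and 1 fell (Zbtb16) between stages in wild type and 1 rose in mutants (Cbx8), and Mll1 was higher in mutants at E10.0 (log2 fold change 0.58, adjusted P=0.0322). Among 11 tested genes of the forelimb field, Tbx5, which starts forelimb outgrowth, was lower in mutants at E10.0 (log2 fold change -0.31, adjusted P=0.0698), and Shh rose with stage in both genotypes. In wild type 2 of these genes rose and 3 fell with stage, and in mutants 4 rose and 3 fell.

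Some genes that flank the cluster were also called lower, by less than the called HoxB genes but by more than Hoxb3 (-0.30 in wild type and -0.26 in mutants). Of 7 tested neighbours, Atp5g1 (log2 fold change -0.38, adjusted P=0.00506) and Igf2bp1 (-0.34, adjusted P=0.0112) were called lower at E10.5 in wild type and Atp5g1 (-0.30, adjusted P=0.00465) in mutants. Among all genes tested, 4.74% were called lower in wild type and 8.4% in mutants. Skap1, the gene next to Hoxb1, had group means of at most 0.179 CPM, and Ttll6, on the side of Hoxb13, was at or near 0. The median log2 fold change of the 7 neighbours was -0.15 in wild type and -0.09 in mutants.

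Embryo by embryo, HoxB levels went together. Over the 14 samples the Pearson correlation of log2(CPM + 1) between members had a median of 0.843 across 36 pairs, from 0.589 for Hoxb3 and Hoxb7 to 0.973 for Hoxb1 and Hoxb2. The pairs share libraries and the stage difference. After subtraction of the group means the median was 0.532, with 0.898 for Hoxb1 and Hoxb2, 0.867 for Hoxb5 and Hoxb6, and values near 0 for Hoxb6 with Hoxb9 (0.000521) and Hoxb3 with Hoxb7 (-0.0063). Within groups, Hoxb9 was only loosely related to its neighbours, with 0.332 for Hoxb8 and 0.333 for Hoxb7, but reached 0.746 with Hoxb3. Hoxb7 was likewise loosely related to Hoxb6 (0.33).

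Outside the Hox clusters, the 5 genes most like the mean log2(CPM + 1) of the tested members over the 14 samples were Cdx1 (r=0.984), Dok4 (0.983), Eif4ebp1 (0.982), Polr3e (0.98) and Prmt7 (0.979). After subtraction of the group means they were Fam83h (0.889), Dok4 (0.883), Id1 (0.877), Snora61 (0.871) and Il1f9 (0.865). Dok4 appeared in both. Id1, a direct target of BMP signalling, had a mean of 40.1 CPM in the wild-type and 17.04 CPM in the mutant embryos at E10.0. These likenesses are descriptions over samples that share library depth and group, picked as the highest of many genes.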

How the data were processed

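The deposited files hold raw read counts per gene symbol for 14 samples. The authors had aligned the reads to mm9 with TopHat2 2.0.13 and counted uniquely mapped reads per gene with HTSeq, without regard to strand. After removal of X-linked, Y-linked and mitochondrial genes, a minimum of 1 CPM in 3 or more samples left 12393 genes for the tests. Library sizes were scaled by TMM, with factors from 0.934 to 1.04. Groups were compared with edgeR 4.0.16 (R 4.3.3), by the exact test with common and tag-wise dispersions over all 14 samples (prior of 10 degrees of freedom) and Benjamini-Hochberg adjustment over all genes tested, as in the methods of the study, and by the quasi-likelihood test for the interaction. Every adjusted P in the text is from edgeR unless DESeq2 (1.42.0) is named. SEs were computed from log2(CPM + 1), with a pseudocount of 1. Exon and coding lengths came from GENCODE for mm9, and promoter and microRNA sequences from RefSeq (GRCm38.p6), with no conversion between builds. Replicate pairs of a group differed by more than sampling noise, with 13.998 or more units of chi-square per degree of freedom. The fits were tested on simulated counts. Each sample was 1 embryo. The genes, the gene lists and the motifs were chosen with earlier results of these data known. Genes were named by a rule: Smad4, all members, other genes within the cluster, at most 4 called genes per list and comparison, the 5 genes most alike, and the flanking genes. Shh, Upk3b, Wt1, Tbx4 and Id1 were named under these parts of the rule, and Cdx2, Cdx4, Olig2, Neurog2, Foxf1a and Tcf21 after their values were seen. Some genes of the lists are not reported here.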

Additional observations from a re-analysis of the deposited data

Results flagged for a closer look

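Each value of a member, of Smad4 and of each cluster's share was examined in the 2 mutant groups of 4 embryos for 1 embryo set apart from the other 3, by the gap to its nearest neighbour over the range (Dixon's ratio, against its 95% critical value for 4 samples). Of 28 sets examined 3 passed, where chance gives about 1 in 20. Hoxb7 in mutants at E10.5 had replicate 5 at 5.63 CPM against 3.88 to 4.14 CPM in the other 3 embryos (ratio 0.852), and replicate 5 was the library with the highest share of Rn45s reads, 8.05%. Smad4 in mutants at E10.0 had replicate 3 at 46.0 CPM against 36.9 to 38.4 CPM (ratio 0.839), and the same embryo was the highest mutant at that stage for 6 HoxB members. The share of the HoxD cluster in mutants at E10.5 had replicate 1 at 49.5% of all Hox CPM (ratio 0.865). No member was called for the interaction of stage and genotype.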

How the results depend on the processing

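The fall of HoxB genes with stage kept its direction for all 9 members under every alternative tried (quasi-likelihood test, DESeq2, RLE size factors, no filter, only the groups compared, replicate block, no mutant replicates 4 and 5, and leaving out each of the 14 samples). Leaving out 1 sample, 5 to 9 members were called in wild type and 7 to 9 in mutants. Among all genes, 182 to 719 were called lower in wild type and 799 to 1287 in mutants in these fits. The genotype results were less stable. At E10.0, 0 members were called with the quasi-likelihood test, with no filter on low counts and with only the 2 groups compared, where Hoxb5 had adjusted P values of 0.102, 0.116 and 0.113, and 0 to 4 when 1 sample was left out. At E10.5, 0 to 1 members were called when 1 sample was left out, and 1 under each other alternative. With 1 sample left out, 130 to 615 of all genes were called lower in mutants at E10.0 and 115 to 200 at E10.5. The cause of these shifts was not tested. The replicate numbers gave no sign of pairing the samples, but the 4 same-numbered pairs were too few to exclude it. Their correlations of deviations were between -0.26 and 0.174 (mean -0.0814), against a mean of 0.016 for 20 other pairs. With the replicate block 2 members were called at E10.0 (Hoxb5 and Hoxb6), 1 at E10.5, 9 and 8 between stages in wild type and mutants, and 0 for the interaction.

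Estimates near 0 changed sign: at E10.0, Hoxb4 between genotypes was -0.0029 with the replicate block, Hoxb7 was 0.023 without mutant replicates 4 and 5, and leaving out 1 sample gave -0.0644 to 0.16 for Hoxb4, -0.0907 to 0.0592 for Hoxb7 and -0.18 to 0.37 for Hoxb9. Interaction estimates without mutant replicates 4 and 5 were -0.13 for Hoxb2 and -0.0257 for Hoxb4, and with 1 sample left out they ranged from -0.47 to 0.31 for Hoxb1, -0.0904 to 0.18 for Hoxb2, -0.0468 to 0.19 for Hoxb3, -0.0751 to 0.14 for Hoxb4 and -0.0114 to 0.30 for Hoxb6. The HoxB share in E10.5 mutants was 6.997% by RPKM in place of 7.53%. Per coding length, an alternative added after seeing the data, Hoxb3 stood 1.23 times above the next member in E10.0 wild type. Lengths from RefSeq proteins were not run.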
